A study of Mus musculus with 19 samples.

Results

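Activated myeloid cells redirect the carbon of the citric acid cycle, arginine and tryptophan into a few effector metabolites, and 8 genes of these routes were followed here in CD11b+ brain cells. They belong to a set of 10, out of the 56980 genes of the count table, that was listed by what the products do, with earlier results of these data known. *Acod1* makes itaconate. *Nos2*, *Gch1*, *Ass1* and *Slc7a2* make nitric oxide or supply what it needs, *Odc1* opens the route to polyamines, and *Ido1* and *Kmo* stand on the kynurenine route of tryptophan breakdown. All but *Ido1*, 7 of the 8, passed the filter on low counts and entered the test across all genes.

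Itaconate is cut from cis-aconitate inside mitochondria and restrains succinate dehydrogenase, which makes it a brake on inflammatory metabolism in macrophages. Inducible nitric oxide synthase takes arginine as its substrate and also depends on tetrahydrobiopterin, a cofactor whose synthesis starts with GTP cyclohydrolase. Indoleamine dioxygenase and kynurenine monooxygenase open and then steer the kynurenine route, whose products in the brain include quinolinate, an agonist of NMDA receptors.

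The libraries were made from CD11b+ cells that were bound to magnetic beads (MACS) from the brains of 19 male mice, with the olfactory bulb and cerebellum removed. CD11b is an integrin on microglia and on other myeloid cells, so the beads also take monocytes, neutrophils and macrophages of the brain borders, although the labels give the cell type as primary microglia. The KO mice carried a gene trap in *Park7* (B6;129P2-Park7Gt(XE726)Byg/Mmucd), which encodes the redox-sensitive protein DJ-1, on a C57BL/6NCrl background, and the wildtype mice were their littermates. All mice were 3 to 4 months old and were killed 6 h after an intraperitoneal injection. The injection was LPS, a bacterial cell wall component, at 4 μg per g of body weight in 5 wildtype and 5 KO mice, and PBS in 4 wildtype and 5 KO mice. The KO is constitutive and LPS was given outside the brain, so a difference need not arise in the sorted cells themselves.

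*Park7* was at 20.6 to 32.1 CPM (counts scaled to the size of the library) in the 9 wildtype libraries and at 0.457 to 5.38 CPM in the 10 KO libraries, with no overlap. Libraries held 11936364 to 22788884 counts, so that 3 counts corresponded to 0.139 to 0.256 CPM. Of the 9 microglial markers found, all 9 were lower after LPS in both genotypes, and their summed level was 25300 to 40600 CPM after PBS and 10600 to 17000 CPM after LPS. Markers of monocytes moved the other way, with 6 of 6 higher after LPS in both genotypes and sums of 18.9 to 56.8 CPM after PBS and 163 to 506 CPM after LPS. Of 9 neutrophil markers, 4 were higher after LPS in wildtype and 5 in KO mice, with sums of 26.8 to 243 CPM after PBS and 109 to 489 CPM after LPS. A single library of each group also held far more oligodendrocyte marker reads than the others, 6570 to 11100 CPM against at most 3850 CPM. In bulk samples of this kind, fewer cells of a type and less RNA per cell cannot be told apart, and the part of these other cells in the results below was not tested unless a value says so.

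Promoter sequences were read for the members that the RefSeq promoter table (GRCm38.p6) holds, *Acod1*, *Ass1*, *Gch1*, *Kmo* and *Odc1*, 5 of the 8. The table did not hold *Nos2*, *Slc7a2* or *Ido1*. The 250 bases before the start are shown for *Acod1*, which had the largest response to LPS in wildtype mice among the members, for *Gch1*, which rose less, and for *Kmo*, which did not pass the test. Capitals mark matches to motifs searched on both strands. They are the TATA box (TATAAA) in *Acod1*, the TATA box on the other strand and an NF-kappaB motif in *Gch1*, and nothing in *Kmo*. In GRCm39, the sequences lie at chr14:103284198-103284447 (plus strand), chr14:47426871-47427120 (minus strand) and chr1:175459509-175459758 (plus strand).
Acod1: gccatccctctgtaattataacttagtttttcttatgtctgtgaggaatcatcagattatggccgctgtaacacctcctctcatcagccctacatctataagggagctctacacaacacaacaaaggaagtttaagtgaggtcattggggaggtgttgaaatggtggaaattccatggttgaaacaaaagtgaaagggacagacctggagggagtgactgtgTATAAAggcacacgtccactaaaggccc
Gch1: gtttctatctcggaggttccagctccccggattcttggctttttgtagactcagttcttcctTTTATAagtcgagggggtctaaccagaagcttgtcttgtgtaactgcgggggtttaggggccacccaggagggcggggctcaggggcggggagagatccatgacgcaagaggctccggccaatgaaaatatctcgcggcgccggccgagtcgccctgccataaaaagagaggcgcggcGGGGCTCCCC
Kmo: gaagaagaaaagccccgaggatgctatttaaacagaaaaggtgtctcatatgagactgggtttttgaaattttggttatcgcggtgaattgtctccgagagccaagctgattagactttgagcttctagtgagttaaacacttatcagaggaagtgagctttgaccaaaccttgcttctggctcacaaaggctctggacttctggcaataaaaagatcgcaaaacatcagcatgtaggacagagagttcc

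The TATA box of *Acod1* lay 28 to 23 bases before the start. The NF-kappaB match of *Gch1* covered the last 10 bases before it, at positions -10 to -1, and its TATA box match lay at -188 to -183 on the opposite strand. Over all 32851 promoters of the table, with 50 bases after the start included, 13.6% held the TATA box and 4.51% the NF-kappaB motif. The interferon-stimulated response element, the gamma-activated site (TTCNNNGAA), the AP-1 motif (TGANTCA) and the C/EBP motif (TTGCNNAA) were held by 3.44%, 8.3%, 7.81% and 10.8% of all promoters and were not found in the windows of these 5 members. Such a match describes letters and not binding, and the absence of one says only that these letters are not in this window.

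The first question was which of these genes responded to LPS within 6 h. *Acod1*, *Nos2*, *Gch1*, *Ass1*, *Slc7a2* and *Odc1* rose in both genotypes, and only *Kmo* of the 7 tested did not pass in either. Genes were called here at an adjusted p-value under 0.05 in edgeR's quasi-likelihood test and a log2 fold change of at least 0.5 in size. Thus 6 of 7 members were called higher in wildtype mice, where 18.4% of all 18739 genes tested were called higher and 17.4% lower. In KO mice 6 of 7 were also called higher, against 20.1% of all genes higher and 19% lower. The median log2 fold change of the 7 members was 1.66 in wildtype and 1.85 in KO mice, beside -0.06 and -0.01 over all genes tested. Libraries of the LPS and PBS groups did not overlap, with LPS higher, for 5 of the 7 in wildtype mice (20.8% of all genes) and for 5 of the 7 in KO mice (16.2% of all genes). The exceptions among the 7 were *Slc7a2* and *Kmo* in both genotypes. Leaving out the 4 libraries rich in oligodendrocyte reads left 6 of 7 called in each genotype. In that fit 3298 of all 18881 genes were called higher in wildtype and 3851 in KO mice.

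**Figure D1:**
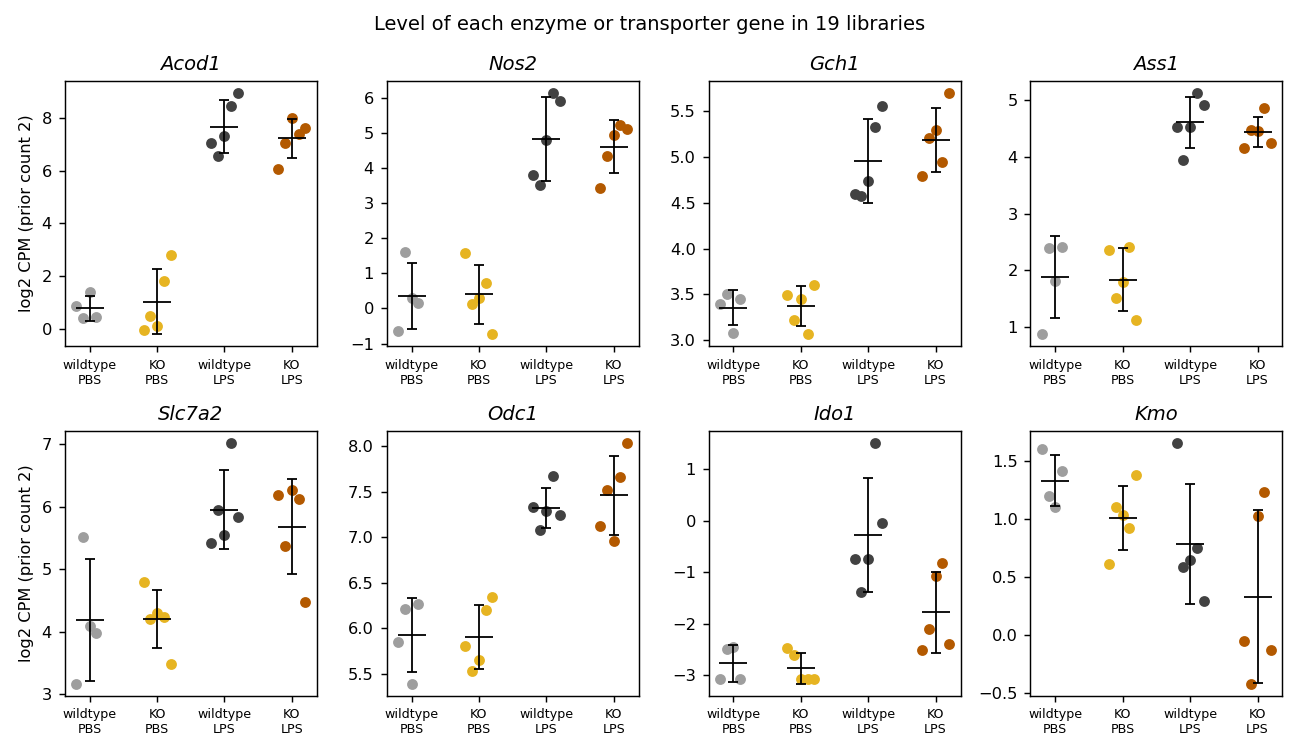
Log2 CPM of each of the 8 genes (prior count of 2) in every library, with 1 point per mouse, the mean and SD as black bars, and the groups wildtype PBS (n = 4), KO PBS, wildtype LPS and KO LPS (n = 5 each). The 5 LPS libraries lie above all PBS libraries of the same genotype for all genes but *Slc7a2*, *Kmo* and, in KO mice, *Ido1*.

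*Acod1* (chr14:103284413-103294009, plus strand), the itaconate synthase, had the largest log2 fold change of the members in wildtype mice. Its level was 1.72, 1.21, 2.56 and 1.24 CPM in the wildtype PBS libraries and 132, 94.1, 160, 353 and 490 CPM in the wildtype LPS libraries. In KO mice it was 0.859, 1.29, 0.965, 3.4 and 6.86 CPM after PBS and 65.8, 133, 253, 166 and 198 CPM after LPS. The lowest LPS library thus stood far above the highest PBS library in both genotypes, while the LPS libraries spread widely among themselves. The log2 fold change was 7.19 ± 0.745 (SE) in wildtype (edgeR adjusted p = 3.31e-07) and 5.93 ± 0.628 in KO mice (adjusted p = 3.28e-07). The KO value was 6.65 without KO PBS replicate 5, the library at 6.86 CPM. Among all genes tested this ranked 23 of 18739 in wildtype and 49 in KO mice, counted from the highest log2 fold change.

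*Nos2* (chr11:78811613-78851080, plus strand), the inducible nitric oxide synthase, was at 0.521, 2.91, 1.12 and 0.993 CPM in wildtype mice after PBS and at 13.7, 11.4, 27.6, 69.8 and 60.2 CPM after LPS. In KO mice it was at 2.88, 0.97, 1.12, 1.52 and 0.486 CPM after PBS and at 10.6, 20, 30.7, 37.3 and 34.4 CPM after LPS. Every LPS library exceeded every PBS library. The log2 fold change was 4.72 ± 0.683 (edgeR adjusted p = 1.63e-05) in wildtype and 4.26 ± 0.608 (adjusted p = 1.11e-05) in KO mice. Without wildtype PBS replicate 2, at 2.91 CPM, the wildtype value was 5.40. *Acod1* exceeded *Nos2* per length of exon in all 10 LPS libraries, by 8.56 to 16.3 times in wildtype and 7.55 to 14 times in KO mice.

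The genes that provide cofactor and substrate for nitric oxide synthesis rose by less. *Gch1* (chr14:47391346-47426915, minus strand), whose product GTP cyclohydrolase starts the synthesis of tetrahydrobiopterin, ranged from 8.28 to 12 CPM over the 9 PBS libraries and from 23.6 to 51.7 CPM over the 10 LPS libraries. The ranges were apart. Its log2 fold change was 1.66 ± 0.225 (edgeR adjusted p = 7.78e-06) in wildtype and 1.85 ± 0.208 (adjusted p = 6.88e-07) in KO mice. *Ass1* (chr2:31352181-31410862, plus strand) encodes argininosuccinate synthase, with which cells rebuild arginine from citrulline, and it ranged from 1.72 to 5.22 CPM after PBS and from 15.3 to 34.9 CPM after LPS. Its log2 fold change was 2.71 ± 0.341 (adjusted p = 3.33e-06) in wildtype and 2.58 ± 0.311 (adjusted p = 1.54e-06) in KO mice. *Asl*, whose product completes this recycling, was at 25.3 ± 1.93 CPM (SD, n = 4) after PBS and 25.7 ± 4.64 CPM (n = 5) after LPS in wildtype mice and was not called in either genotype.

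*Slc7a2* (chr8:41315431-41375345, plus strand), a transporter of arginine and other cationic amino acids, was the least separated of the called members. It was at 8.86, 45.5, 16.9 and 15.6 CPM after PBS and at 42.5, 61.4, 46.7, 130 and 57.3 CPM after LPS in wildtype mice. In KO mice the levels were 27.8, 18.3, 19.6, 18.6 and 11.1 CPM after PBS and 72.6, 41.3, 77.1, 69.5 and 22.2 CPM after LPS. A single PBS library of wildtype mice, at 45.5 CPM, reached into the LPS range, and a single LPS library of KO mice, at 22.2 CPM, lay within the PBS range. The log2 fold change was 1.64 ± 0.457 (edgeR adjusted p = 0.0069) in wildtype and 1.57 ± 0.422 (adjusted p = 0.00486) in KO mice. Without wildtype PBS replicate 2, the library at 45.5 CPM, the wildtype value was 2.31. The levels moved with the reads of other brain cells between mice of one group. The 5 astrocyte markers summed to 186 to 4240 CPM over the 19 libraries, none of these markers is held by the microglial list, and the correlation of their sum with *Slc7a2* was r = 0.861 over 19 libraries as deviations of log2 CPM from the group means. The link was not particular to astrocytes. Taken the same way, r was 0.768 for neuron, 0.741 for endothelial, 0.554 for T and NK cell and 0.51 for oligodendrocyte markers. The wildtype PBS library at 45.5 CPM had the highest astrocyte sum of its group, 2820 CPM, and the KO LPS library at 22.2 CPM had the lowest, 186 CPM. With the astrocyte sum as a covariate, added after the data were seen, the log2 fold change was 1.68 in wildtype and 1.43 in KO mice and passed the test in both. Without the 4 libraries rich in oligodendrocyte reads it was 2.33 and 1.65.

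**Figure D2:**
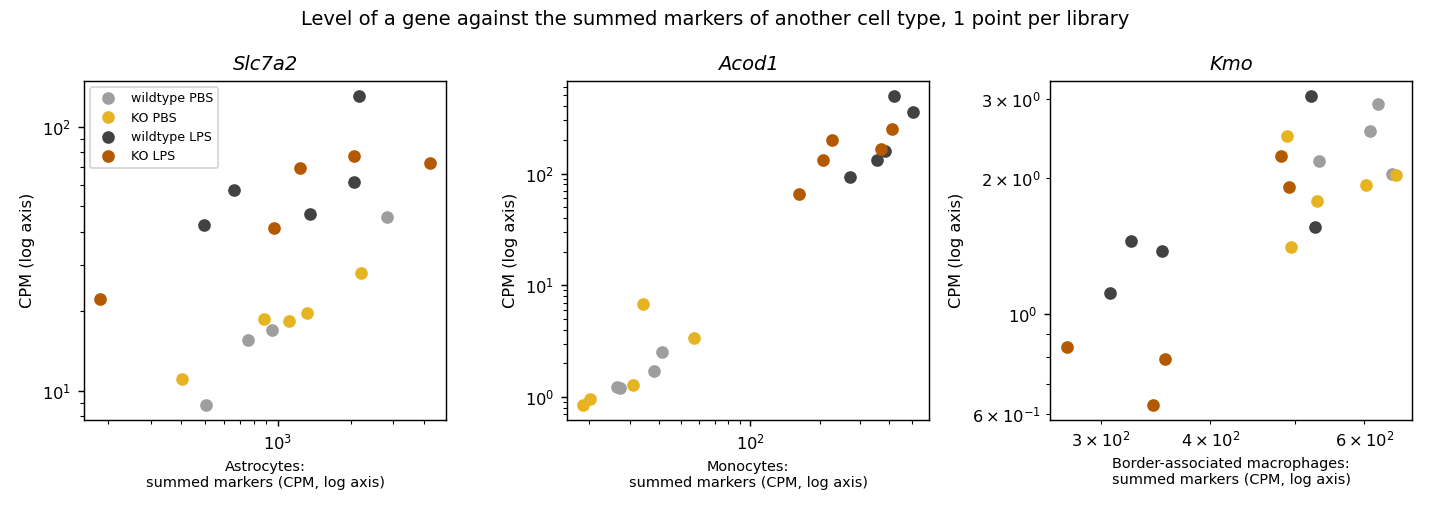
Level of 3 genes in CPM against the summed CPM of markers of another cell type, both on log axes, with 1 point per library coloured by group. Within a group, *Slc7a2* was higher in libraries with more astrocyte marker reads (r = 0.861 as deviations from group means), *Acod1* with monocyte (r = 0.748) and *Kmo* with border-associated macrophage markers (r = 0.706).

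*Odc1* (chr12:17594383-17601507, plus strand) encodes ornithine decarboxylase, which turns ornithine into putrescine, and it was the member with the highest level per length after PBS. It ranged from 41.8 to 81.3 CPM over the 9 PBS libraries and from 124 to 263 CPM over the 10 LPS libraries, without overlap. The log2 fold change was 1.37 ± 0.231 (edgeR adjusted p = 8.41e-05) in wildtype and 1.57 ± 0.215 (adjusted p = 6.89e-06) in KO mice. A small nucleolar RNA, *Gm22748*, lies within *Odc1* on the same strand.

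*Ido1* (chr8:25074150-25087025, minus strand), which opens the kynurenine route, was too low for the test across all genes. It had 0, 1, 1 and 0 counts in the wildtype PBS libraries and 8, 4, 8, 42 and 10 counts in the wildtype LPS libraries. In KO mice it had 1, 1, 0, 0 and 0 counts after PBS and 1, 2, 6, 8 and 1 counts after LPS. The LPS and PBS libraries were apart in wildtype mice only, and whether the genotypes differ in this was not shown, since the interaction, fitted over all genes without a filter, was -1.74 on the log2 scale with an edgeR adjusted p = 1. In that same fit *Ido1* was called higher after LPS in both genotypes, with log2 fold changes of 4.67 (edgeR adjusted p = 0.000891) in wildtype and 2.93 (adjusted p = 0.0346) in KO mice, which depend on the prior count at such levels. An exact permutation test on log2 CPM, taken as two-sided, gave p = 0.0159 for LPS against PBS in each genotype. Over summed counts the ratio of LPS to PBS was 31.9 in wildtype (95% interval for counting error 8.51 to 268) and 10.2 in KO mice (2.45 to 91). Wildtype LPS replicate 4 held 42 of the 72 wildtype counts after LPS, and without it the wildtype ratio was 16.7 (4.23 to 144). With only 2 counts after PBS in each genotype, leaving out a library that held 1 of them gave 48 (wildtype replicate 2) and 49.3 (replicate 3) in wildtype mice and 17 (KO replicate 1) and 15.8 (replicate 2) in KO mice.

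*Kmo* (chr1:175447947-175489683, plus strand), the monooxygenase that sends kynurenine towards quinolinate, was the only tested member with a lower mean after LPS, and the difference was not significant. It was at 2.92, 2.18, 2.04 and 2.55 CPM after PBS and at 3.04, 1.38, 1.45, 1.56 and 1.11 CPM after LPS in wildtype mice. In KO mice it was at 1.41, 2.03, 1.93, 1.78 and 2.48 CPM after PBS and at 0.844, 0.629, 1.91, 2.24 and 0.794 CPM after LPS. The highest LPS library passed the PBS range in wildtype mice, and 2 of 5 LPS libraries lay within it in KO mice. The log2 fold change was -0.50 (95% interval -1.25 to 0.26, edgeR adjusted p = 0.302) in wildtype and -0.58 (-1.31 to 0.15, adjusted p = 0.187) in KO mice. Of 7 markers of border-associated macrophages, 4 were lower after LPS in each genotype, with sums of 489 to 652 CPM after PBS and 274 to 527 CPM after LPS. The gene spans of *Kmo* and *Fh1* overlap on opposite strands. How strand was used in counting is not given in the sources used here, so reads in this overlap cannot be assigned with certainty.

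**Figure D3:**
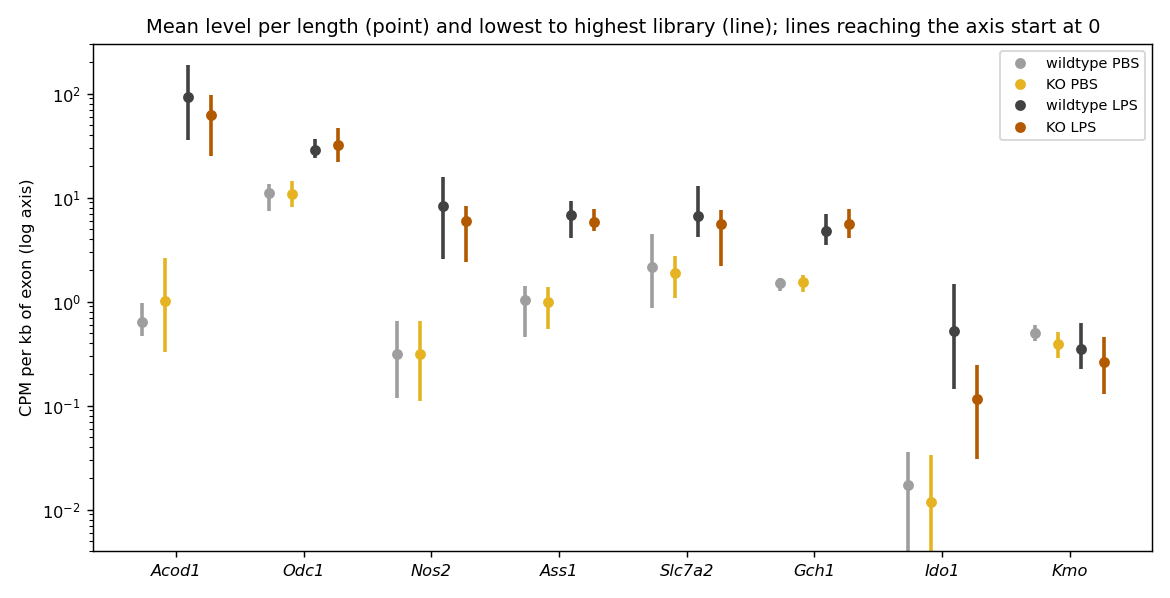
Mean level of each gene per length, in CPM per kb of exon on a log axis (points), and the range from the lowest to the highest library (lines), for the 4 groups. *Odc1* leads after PBS, *Acod1* has the highest mean after LPS, and *Ido1* is the lowest after PBS.

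Per length of exon the order of the members changed between treatments. After PBS *Odc1* stood first, at 11 CPM per kb in wildtype and 10.8 in KO mice, and its libraries did not overlap those of the next gene, *Slc7a2*, at 2.15 and 1.89. From *Slc7a2* down through *Gch1*, *Ass1*, *Acod1*, *Kmo* and *Nos2*, each neighbour overlapped the next in wildtype mice. In KO mice *Acod1* stood before *Ass1*, and *Ass1*, at 0.982, did not overlap *Kmo*, at 0.394. *Ido1* was last and apart from the others, at 0.0173 CPM per kb in wildtype and 0.0118 in KO mice. After LPS *Acod1* had the highest mean, 93.7 ± 64.5 CPM per kb (SD, n = 5) in wildtype and 62.2 ± 26.7 in KO mice, but its libraries overlapped those of *Odc1*, at 28.6 ± 4.6 and 32.2 ± 9.75. *Nos2*, *Ass1*, *Slc7a2* and *Gch1* followed at 4.81 to 8.23 CPM per kb in wildtype and 5.55 to 5.99 in KO mice, and neighbours among them did not differ beyond their spread. *Ido1* and *Kmo* were lowest and apart from these, at 0.115 to 0.526.

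The second question was whether loss of DJ-1 changed these levels. None of the 7 tested members was called between KO and wildtype mice, either after LPS or after PBS. A call here needed an unadjusted p-value under 0.05 and a log2 fold change of at least 0.5 in size, which 1.31% of all genes met after LPS and 0.8% after PBS, and the adjusted p of each member was 1 in edgeR. At an unadjusted p under 0.05 alone the count was 0 of 7 as well, where 2.57% of all genes passed after LPS and 1.04% after PBS, and DESeq2 also called 0 members. With so few genes of the whole table past these thresholds, a count of 0 of 7 is near the background. No member had its KO and wildtype libraries apart, which was so for 0.219% of all genes after LPS and 0.971% after PBS. The response to LPS did not differ between genotypes for any of the 7 at the thresholds used (interaction). At an adjusted p under 0.05, 0 of the 7 and 0% of all genes passed, and at an unadjusted p under 0.05 these were 0 of the 7 and 0.961% of all genes. These results limit the differences to different degrees, as their intervals show.

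**Figure D4:**
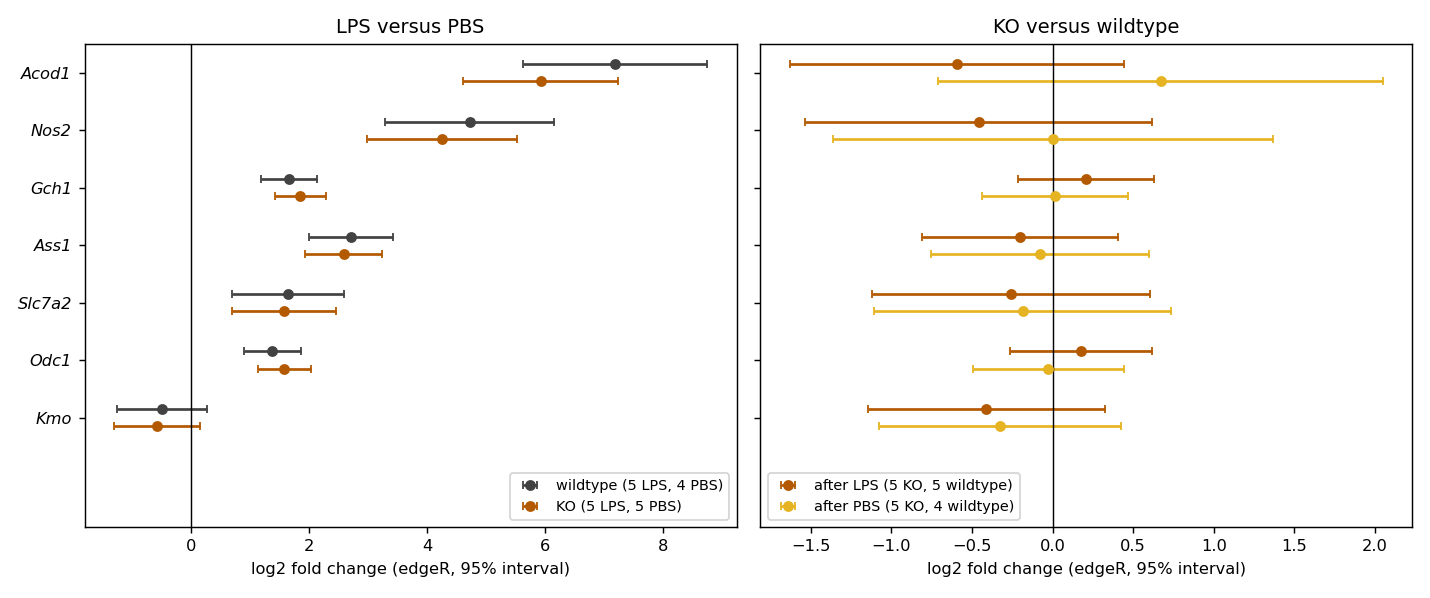
Log2 fold changes of the 7 tested genes with 95% intervals from edgeR, for LPS against PBS in each genotype (left) and KO against wildtype after each treatment (right). On the left, 6 of 7 genes lie above 0 in both genotypes, and on the right every interval includes 0.

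After LPS, *Gch1* and *Odc1* gave the narrowest intervals. *Gch1* averaged 32.2 ± 10.6 CPM in wildtype and 37.1 ± 9.3 CPM in KO mice (SD, n = 5 each), a log2 fold change of 0.21 (95% interval -0.21 to 0.63). *Odc1* averaged 162 ± 26.1 and 183 ± 55.2 CPM, a log2 fold change of 0.17 (-0.27 to 0.62). *Acod1* averaged 246 ± 169 and 163 ± 70.2 CPM, a log2 fold change of -0.59 (-1.63 to 0.45). The monocyte marker sum, which *Acod1* followed between mice, was 270 to 506 CPM (median 382) in wildtype and 163 to 411 CPM (median 225) in KO mice after LPS. All 6 monocyte markers had a log2 fold change below 0 in KO against wildtype mice, from -0.28 to -0.66, with 0 of 6 called, and the lowest exact permutation p was that of *Plac8*, 0.0476. The part of monocytes in the difference of *Acod1* was not tested. Of *Gch1*, *Odc1* and *Acod1*, *Acod1* had the widest spread of LPS libraries and the widest interval, so a difference for this gene is less well bounded. *Nos2* had -0.46 (-1.53 to 0.62), *Ass1* -0.20 (-0.81 to 0.40), *Slc7a2* -0.26 (-1.12 to 0.60) and *Kmo* -0.41 (-1.15 to 0.32). The direction for *Slc7a2* turned to 0.12 without wildtype LPS replicate 4. The interaction was -1.26 (-2.99 to 0.46) for *Acod1*, whose mean after PBS was 1.68 ± 0.63 CPM in wildtype (n = 4) and 2.68 ± 2.56 CPM in KO mice (n = 5), and without KO PBS replicate 5 the interaction was -0.56 and the difference after PBS went from 0.67 to -0.03. For *Nos2* the interaction was -0.46, and without wildtype PBS replicate 2 it was -1.13 and the difference after PBS went from 0.00218 to 0.67. Leaving out the same mouse moved the interaction of *Slc7a2* from -0.07 to -0.73 and its difference after PBS from -0.19 to 0.47. None of these passed the test.

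*Ido1* was the member with the lowest exact p between genotypes after LPS. Its 5 wildtype libraries were at 0.477, 0.263, 0.482, 2.73 and 0.853 CPM and its 5 KO libraries at 0.0562, 0.114, 0.359, 0.447 and 0.0722 CPM. The ranges overlapped, and 3 of the KO libraries lay below the lowest wildtype library. Summed over the group and scaled to depth, 18 counts in KO against 72 in wildtype mice gave a ratio of 0.226 (95% interval for counting error 0.127 to 0.383). The exact two-sided permutation test gave p = 0.0397, the only value under 0.05 among the 16 exact tests of KO against wildtype. With no filter on low counts, the edgeR log2 fold change was -2.15 with an unadjusted p = 0.00557 and an adjusted p of 0.967 over all genes. Much of the difference came from 1 mouse, wildtype LPS replicate 4, with 42 of the 72 counts. Without it the ratio was 0.432 (0.227 to 0.801) and the exact permutation p was 0.0794. The exact permutation p was also above 0.05 without wildtype LPS replicate 5 (0.0714) and without KO LPS replicate 1, 2 or 5 (0.0873 each), so that it was lost in 5 of the 10 omissions of 1 mouse and ran from 0.0159 to 0.0873 over all of them.

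The other genes of these routes, 69 in number, were listed by role. Of the 61 that were tested, 13 were higher and 10 lower in wildtype and 14 higher and 12 lower in KO mice, in both cases with a median log2 fold change near 0 (0.07 and 0.09). These are 21.3% higher and 16.4% lower in wildtype mice, beside 18.4% and 17.4% of all genes tested, and 23% and 19.7% in KO mice, beside 20.1% and 19% of all genes. The list as a whole was thus called at about the rate of all genes. The counts of the role lists below stand beside the same shares, and none of the lists was tested as a set. All 23 genes called in wildtype mice were called in the same direction in KO mice. None of the 61 was called between genotypes after either treatment or in the interaction by edgeR or DESeq2, and *Gatm* after LPS was the only one with an unadjusted p under 0.05 (0.0378, log2 fold change 0.43). Single-gene exact permutation tests gave 0 values under 0.05 after LPS and 2 after PBS, both for genes named here because of those values. The share of all genes under 0.05 in this test was not computed, and 2 of 69 is no more than the threshold of 0.05 alone allows. They were *Sdhc*, a subunit of succinate dehydrogenase (exact p = 0.0159), and *Sms*, spermine synthase (exact p = 0.0238). *Sdhc* was also the only one of the list with its libraries apart, at 54 to 56.6 CPM in wildtype and 57 to 73.5 CPM in KO mice after PBS, a log2 fold change of 0.16 (edgeR adjusted p = 1). Libraries were apart after PBS for 0.971% of all genes, so 1 of 61 is near the background. Without the 4 libraries rich in oligodendrocyte reads, 11 were higher and 9 lower in wildtype mice and 15 higher and 12 lower in KO mice. Of all 18881 genes in that fit, 6357 were called in wildtype and 7237 in KO mice, of which 3298 and 3851 were higher.

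**Figure D5:**
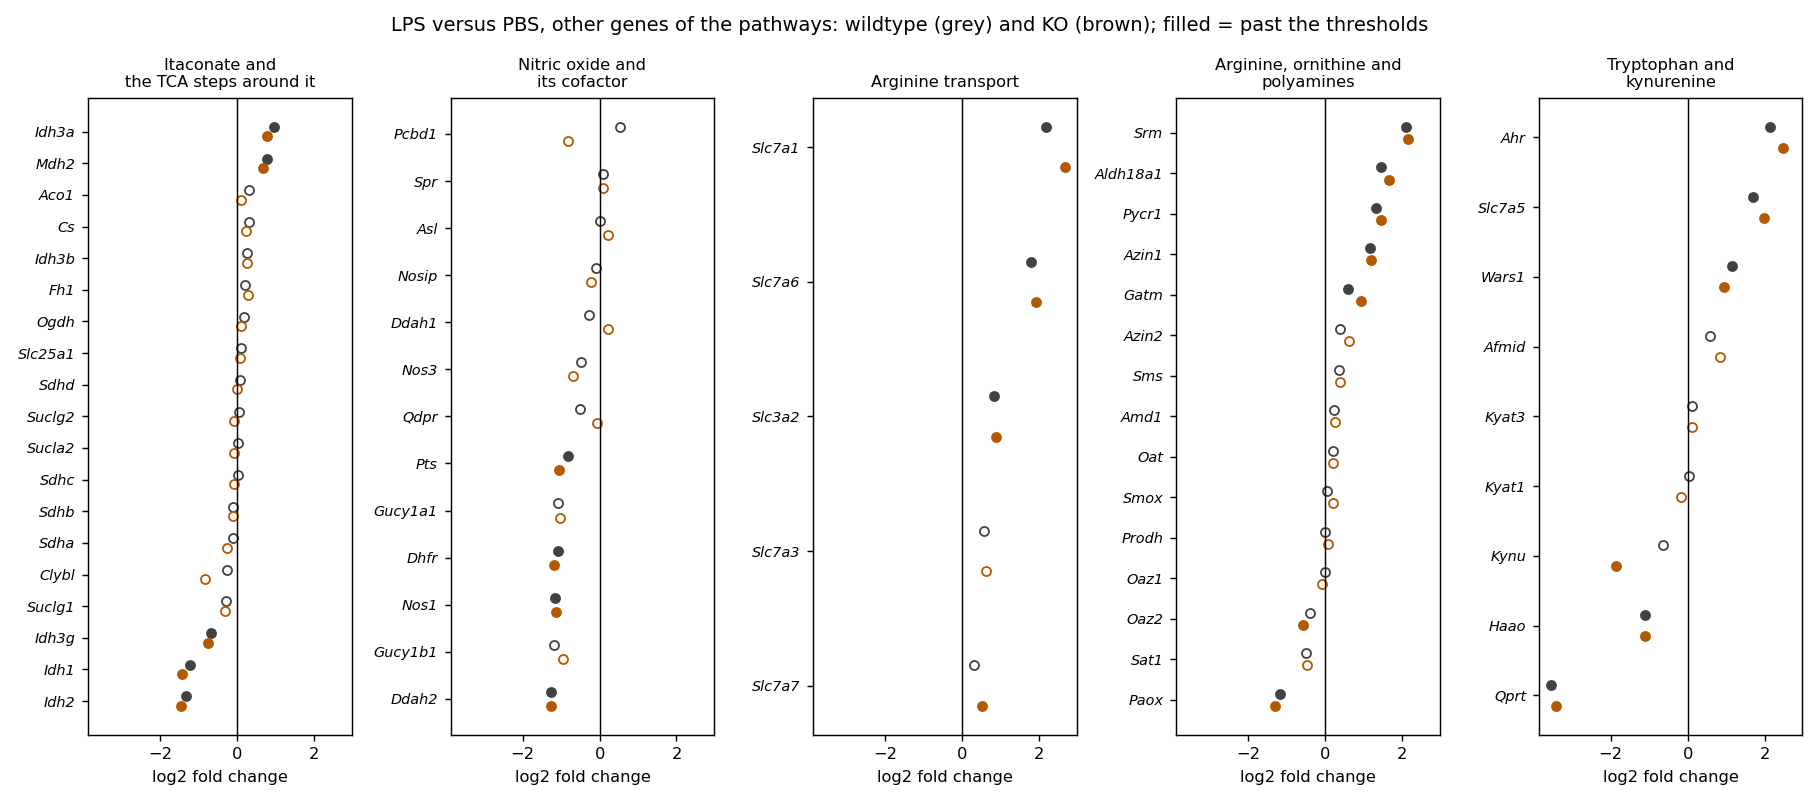
Log2 fold change of LPS against PBS from edgeR for the 61 tested genes of the 5 role lists, in wildtype (grey) and KO mice (brown), with filled points for those past both thresholds. Transport and polyamine genes hold most of the increases, and the nitric oxide list holds only decreases among its called genes.

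The list around itaconate held 19 tested genes, those of the citric acid cycle with cytosolic isoenzymes, a citrate carrier and an enzyme of itaconate breakdown. In each genotype 2 of the 19 were higher and 3 lower. *Idh3a*, a subunit of the NAD-dependent isocitrate dehydrogenase, rose by a log2 fold change of 0.96 in wildtype and 0.77 in KO mice, and *Mdh2*, the mitochondrial malate dehydrogenase, by 0.79 and 0.68. *Idh1*, the cytosolic NADP-dependent isocitrate dehydrogenase, fell by 1.21 and 1.41 on the log2 scale, and the mitochondrial *Idh2* fell by 1.32 and 1.45. *Idh3g*, another subunit of the same enzyme as *Idh3a*, fell by 0.68 and 0.75, so that subunits of this enzyme went opposite ways. The genes of succinate dehydrogenase, the enzyme that itaconate restrains, were not called. For its catalytic subunit *Sdha* the log2 fold change was -0.11 in wildtype (edgeR adjusted p = 0.395) and -0.25 in KO mice (adjusted p = 0.0326), the latter below the fold threshold.

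Of 13 tested genes for nitric oxide and its cofactor, 0 were higher and 4 were lower in each genotype, all lying around *Nos2* and *Gch1*, which rose. *Nos1*, the neuronal synthase, was at 13.5 ± 6.31 CPM after PBS and 5.98 ± 1.79 CPM after LPS in wildtype mice, a log2 fold change of -1.17 (edgeR adjusted p = 0.0351). *Pts*, the enzyme after GTP cyclohydrolase in tetrahydrobiopterin synthesis, had log2 fold changes of -0.81 in wildtype and -1.05 in KO mice. Thus the first enzyme of cofactor synthesis rose while the next fell.

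Of 5 tested genes for arginine transport, 3 were higher in wildtype and 4 in KO mice, and the others did not pass. *Slc7a1*, the constitutive cationic amino acid transporter, went from 80 ± 14 CPM after PBS to 362 ± 49.7 CPM after LPS in wildtype mice and from 71.9 ± 20.6 to 458 ± 137 CPM in KO mice, log2 fold changes of 2.18 (edgeR adjusted p = 3.44e-07) and 2.67 (adjusted p = 9.2e-09). Per length of exon it exceeded *Slc7a2* in all 19 libraries, by 1.87 to 8.08 times in wildtype and 2.3 to 23.4 times in KO mice. *Slc7a6*, another of these transporters, rose by 1.78 and 1.92 on the log2 scale.

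In the list for arginine, ornithine and polyamines, 5 of 15 tested genes were higher in each genotype, and 1 was lower in wildtype and 2 in KO mice. *Srm*, spermidine synthase, rose by 2.10 and 2.15 on the log2 scale, from 22.8 ± 2.13 to 97.6 ± 16.1 CPM in wildtype mice, more than *Odc1* did. *Azin1*, an inhibitor of the antizymes that target ornithine decarboxylase for breakdown, rose by 1.18 and 1.21. *Gatm*, which takes arginine towards creatine, rose by 0.61 and 0.95. The ratio of *Odc1* to *Srm* per length of exon was 1.23 to 4.01 over the PBS libraries and 1.01 to 2.03 over the LPS libraries.

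On the tryptophan side, 3 of 9 tested genes were higher in each genotype, 2 were lower in wildtype and 3 in KO mice. *Qprt*, which consumes quinolinate for NAD synthesis, was at 5.5 ± 1.23 CPM after PBS and 0.443 ± 0.339 CPM after LPS in wildtype mice, with log2 fold changes of -3.56 (edgeR adjusted p = 1.82e-05) in wildtype and -3.43 (adjusted p = 1.39e-05) in KO mice. *Haao*, which makes the precursor of quinolinate, had -1.11 in both. *Kynu*, kynureninase, had -0.65 in wildtype (adjusted p = 0.268) and -1.88 in KO mice (adjusted p = 0.00134), and the interaction did not pass (-1.23, edgeR adjusted p = 1). *Slc7a5*, the large neutral amino acid transporter that carries tryptophan and kynurenine, rose by 1.70 and 2.00, and *Ahr*, a receptor for kynurenine and other ligands, by 2.14 and 2.47.

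Between mice of the same group, some of the members varied together. After the mean of each group was subtracted from log2 CPM, the correlation over 19 libraries was r = 0.792 for *Nos2* and *Ass1* and r = 0.608 for *Ass1* and *Slc7a2*. It was 0.246 for *Acod1* and *Nos2*, and the lowest value, -0.263, was that of *Gch1* and *Kmo*. The points of such a correlation share the library, its depth and its mixture of cells. Each library's monocyte and neutrophil marker sums followed *Acod1* (r = 0.748 and 0.655). The dendritic cell sum, in which *Ccr7* had the highest mean level after LPS, followed *Gch1* (r = 0.879) and *Nos2* (r = 0.693), and *Ccr7* itself was at 0.526 ± 0.113 CPM after PBS and 72.3 ± 76.1 CPM after LPS in wildtype mice, while *Xcr1* was at 0 to 2 counts in each LPS library. Of the 6 dendritic cell markers 4 were tested, of which 1 was higher and 2 lower after LPS in wildtype mice and 1 was higher and 1 lower in KO mice. *Ccr7* was the one that rose, *Flt3* had log2 fold changes of -1.43 and -1.24, and *Cd209a* had -1.19 in wildtype and -0.61 in KO mice, where it was not called. *Zbtb46* was not called and stood at 15.2 ± 5.21 CPM after LPS in wildtype and 19.5 ± 4.08 CPM in KO mice. The part of dendritic cells in the levels of *Gch1* and *Nos2* was not tested.

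Among all genes tested, those that varied most like each member differed from member to member. For *Acod1* they were *Tarm1* (r = 0.928), *Clec4e* (r = 0.914), a C-type lectin receptor, and *Hdc* (r = 0.885), histidine decarboxylase. For *Nos2* they were *Slc7a11* (r = 0.896), the cystine transporter, *Adora2a* (r = 0.894), an adenosine receptor, and *F3* (r = 0.877), tissue factor. *Slc7a2* went with *Pla2g7* (r = 0.955), *Thbs4* (r = 0.934) and *Disp3* (r = 0.921). *Ass1* went with *Gata3* (r = 0.828), *Tecrl* (r = 0.812) and *Nos2* itself. The lists of *Gch1* (*Tlnrd1*, *2310043P16Rik* and *Hjurp*, r = 0.846 to 0.883) and of *Odc1* (*Hyal3*, *Gde1* and *Hexim2*, r = 0.865 to 0.911) had no gene in common. *Kmo* went with *H4c2*, *Fech* and *Rbm44* (r = 0.812 to 0.849). Each is among the highest of 18739 genes over only 19 libraries, and so describes these mice.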

How the data were processed

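CD11b+ brain cells were isolated by MACS from 19 mice, and stranded total RNA libraries were prepared after ribosomal depletion. The authors trimmed the reads with Cutadapt and aligned them with STAR (2.7.9a) to GRCm39. What the authors deposited is a table of raw read counts, without normalization, of 56980 Ensembl genes by mouse. GENCODE M39 on the same build named 56236 of them and gave positions and exon lengths. Total counts per library were 11936364 to 22788884 (median 17211939). Libraries of 1 group differed by more than sampling noise (chi-square over its degrees of freedom at least 6.5), so each mouse was 1 replicate.

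The tests were run in edgeR 4.0.16 (R 4.3.3) on the 18739 genes that filterByExpr kept at a minimum count of 10 and a minimum total of 15. Libraries were scaled with TMM, and all 19 entered 1 quasi-likelihood fit with 4 groups, adjusted with the Benjamini-Hochberg method. The thresholds for calls followed the study. CPM are counts scaled to the TMM library size, and log2 CPM used a prior count of 2. Exact permutation tests of log2 CPM were two-sided and can give no p below 0.00794. Intervals and limits on counts cover counting error only. The scripts were tested on simulated data. Alternatives were DESeq2 1.42.0, its size factors, other filters, thresholds and prior counts, only the groups compared, mitochondrial and ribosomal RNA genes left out, the replicate number as a block and each mouse left out. A marker covariate, leaving out 4 libraries and the *Ido1* count ratios without each library were added after the data were seen.

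The 10 members and all lists were chosen with earlier results of these data known. Results are given for 8 of the 10, and 2 members and 1 gene of the pathway list are not reported here, although they stayed in the fit across all genes. From the list of 69 other genes, at most 20 were named with values, among those that passed in at least 1 comparison (26) or were needed beside a member by role; which of them were taken was decided by role after their values were seen, and *Sdhc* and *Sms* were named beyond these for their exact tests. The 3 genes with the highest correlation to each tested member are named without a p-value. Same-numbered mice are different animals, and the numbers were not taken to pair the samples.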

Additional observations from a re-analysis of the deposited data

Results flagged for a closer look

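In 3 of 32 combinations of a member and a group, 1 mouse lay apart from the others of its group, by a gap that exceeded Dixon's 95% critical value for the group's size. The rule was applied to CPM and not to log2 CPM. Its critical value assumes a normal spread, under which about 1 in 20 such groups is flagged. Whether CPM meet this was not tested. *Slc7a2* was at 130 CPM in wildtype LPS replicate 4 and at 42.5 to 61.4 CPM in the others. *Ido1* was at 2.73 CPM (42 counts) in the same mouse and at 0.263 to 0.853 CPM in the others. *Kmo* was at 3.04 CPM (51 counts) in wildtype LPS replicate 1 and at 1.11 to 1.56 CPM in the others. All these mice had received LPS.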

How the results depend on the processing

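For LPS against PBS, the 6 called members kept their direction and their call in both genotypes under all 334 alternative values, and the 56 of *Kmo* kept its lower mean and missed the threshold. With at least 10 counts in every library only 6 members were tested and 5 were called in each genotype, since fewer genes entered. Of all 13307 genes in that fit, 2594 were called higher in wildtype and 2789 in KO mice. Between genotypes after LPS, 1 member (*Ido1*, lower in KO) was called with no filter on low counts, and leaving out each mouse called 0. For the other pathway genes, leaving out each mouse gave 0 to 1 called after LPS (*Gatm*, 0.54, without KO LPS replicate 4) and 0 to 1 after PBS (*Slc7a5*, -0.52, without KO PBS replicate 1). The replicate number of the labels was not taken to pair the mice. Within a genotype, correlations of same-numbered deviations, LPS against PBS, ran from -0.0418 to 0.576 in wildtype mice (mean 0.325). In KO mice they ran from 0.0265 to 0.544 (mean 0.254). Between genotypes they ran from -0.573 to 0.3 after LPS and -0.29 to 0.299 after PBS. The libraries rich in oligodendrocyte reads were replicate 2 in both wildtype groups and replicate 1 in both KO groups. What same-numbered mice of a genotype share was not tested. As a replicate block, shared by both genotypes, the number changed no call of a member. It turned the log2 fold change of KO against wildtype after PBS to -0.0943 for *Gch1* and 0.0348 for *Slc7a2*. That comparison also turned to -0.00743 for *Gch1* with at least 10 counts in every library, and to 0.28 for *Slc7a2* and 0.0760 for *Odc1* without the 4 libraries rich in oligodendrocyte reads. No member passed the test in any of these. Leaving out each mouse, values that crossed 0 between genotypes after PBS ran from -0.0282 to 0.93 for *Acod1*, -0.43 to 0.67 for *Nos2*, -0.33 to 0.11 for *Ass1*, -0.0686 to 0.0841 for *Gch1*, -0.45 to 0.47 for *Slc7a2* and -0.18 to 0.10 for *Odc1*. After LPS they ran from -0.40 to 0.12 for *Slc7a2*. In the interaction they ran from -0.32 to 0.12 for *Ass1*, -0.73 to 0.31 for *Slc7a2* and -0.38 to 0.23 for *Kmo*. The cause of these turns was not tested. Over all genes, the calls between genotypes (245 after LPS, 150 after PBS) were 854 and 680 with no filter, 111 and 58 with at least 10 counts in every library, 105 after LPS with only the groups compared, 434 after LPS without KO LPS replicate 5, and 234 and 256 after PBS with the replicate block and the astrocyte covariate. *Ido1* and *Kmo* had 0 to 56 counts per library, and whether depth or the spread between mice sets the limit of their comparisons was not tested.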
